A study of Rattus norvegicus with 13 samples.

Results

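Interferon response and immunoproteasome genes were followed through a rat cholangiocarcinoma, the cancer that arises from bile ducts, and through cell lines made from it. The set holds 40 listed genes, chosen by name for their known role, of which 39 were measured among the 14217 genes of the arrays. Gbp5 is not analysed here. By role they are 5 transcription factors, 2 RNA sensors, 15 antiviral effectors, 4 genes of the ISG15 system and its partners among the PARPs, 1 guanylate binding protein, 5 immunoproteasome genes, 4 genes of peptide loading and the class I light chain, and 3 ligands of the chemokine receptor CXCR3. No expression value entered the choice by its rule, although the set was proposed with earlier results of these arrays in view.

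All material came from intrahepatic cholangiocarcinoma of young adult male Fischer 344 rats. The tumours (4 arrays) were snap-frozen tissue that grew after BDEsp cells, spontaneously transformed rat BDE1 cholangiocytes, were inoculated into the bile duct, so they also contain cells of the host liver. The epithelial line, BDEsp-TDEH10 (clone H10, 3 arrays), and the fibroblastic line, BDEsp-TDFE4 (clone E4, positive for alpha-SMA, 4 arrays), are each a single clone derived from tumours and were cultured in type I collagen gel made from rat tail. Each line was also profiled after co-culture with the other, with 1 array labelled epithelial and 1 labelled fibroblastic. Plating densities varied in co-culture, and that used for each array is not stated in the labels. Nothing in the labels says that arrays of a group came from separate animals or cultures, so p-values may measure only technical spread.

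Type I and type II interferons act through receptor-bound kinases that switch on transcription factors. STAT2 and IRF9 take part in a complex that binds the interferon-stimulated response element (ISRE), and interferon gamma acts through the gamma-activated sequence (GAS). Type I interferon raises antiviral effectors, while interferon gamma is the classical inducer of the immunoproteasome, of peptide loading and of the chemokines that draw T cells. In the immunoproteasome, Psmb8, Psmb9 and Psmb10 replace the constitutive catalytic subunits, and Psme1 and Psme2 encode the PA28 cap that opens the chamber.

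The promoters of these genes were searched for the letters of both elements. The ISRE core searched was GAAA, any 2 bases and GAAA again, and the GAS core was TTCNNNGAA, on both strands, in the window from 250 bases before to 50 bases after each gene start in RefSeq's GRCr8 table, which held 31 of the 39 genes. An ISRE core was present in 20 of the 31 (64.5%), against 1034 of 27457 promoters of the same length (3.77%). A GAS core was present in 10 of 31 (32.3%), against 2382 of the 27457 (8.68%). By role, 8 of 10 antiviral effectors, 3 of 5 immunoproteasome genes, 4 of 4 genes of peptide loading and the light chain, 1 of 3 CXCR3 ligands and 1 of 5 transcription factors held an ISRE core. A match is a description of letters and not of a bound site. The genes were chosen by name for their known role in the interferon response, so these shares are no result of the arrays. In Oas1a, Bst2 and Tapbp 2 ISRE matches overlap each other.

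The following stretches of the sense strand show the ISRE core in capitals, with overlapping copies joined. They were chosen to put antiviral and other interferon response genes beside genes of class I presentation.
Irf7 (chr1:205800068-205800107, minus strand): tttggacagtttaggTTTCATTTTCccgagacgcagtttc
Ifit3 (chr1:241527267-241527306, plus strand): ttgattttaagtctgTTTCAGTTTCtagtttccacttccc
Oas1a (chr12:41330410-41330449, plus strand): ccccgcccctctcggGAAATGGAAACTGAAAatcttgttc
Rsad2 (chr6:48788243-48788282, minus strand): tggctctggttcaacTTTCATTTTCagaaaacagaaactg
Bst2 (chr16:18255074-18255113, minus strand): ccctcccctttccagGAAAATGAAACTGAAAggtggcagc
Gbp2 (chr2:234005681-234005720, plus strand): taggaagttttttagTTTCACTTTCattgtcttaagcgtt
Psmb10 (chr19:50743341-50743380, minus strand): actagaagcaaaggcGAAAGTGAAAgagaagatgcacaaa
Psme2 (chr15:33052780-33052819, minus strand): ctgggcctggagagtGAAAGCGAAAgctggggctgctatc
Tap1 (chr20:4668640-4668679, minus strand): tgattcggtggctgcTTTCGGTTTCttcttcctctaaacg
Tap2 (chr20:4652313-4652352, minus strand): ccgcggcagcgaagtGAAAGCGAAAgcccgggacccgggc
B2m (chr3:129549165-129549204, plus strand): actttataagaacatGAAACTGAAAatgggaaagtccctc
Among the genes shown, Irf7, Ifit3, Oas1a, Bst2 and B2m were above both lines in the tumours, Rsad2, Gbp2, Psmb10, Psme2 and Tap2 were above the fibroblastic line alone, and Tap1 was called in no comparison. Irf1 held no ISRE core in its window but a GAS core, which begins 142 bases before the gene start and is in capitals in the 250 bases before that start.
Irf1 (chr10:38417685-38417934, plus strand): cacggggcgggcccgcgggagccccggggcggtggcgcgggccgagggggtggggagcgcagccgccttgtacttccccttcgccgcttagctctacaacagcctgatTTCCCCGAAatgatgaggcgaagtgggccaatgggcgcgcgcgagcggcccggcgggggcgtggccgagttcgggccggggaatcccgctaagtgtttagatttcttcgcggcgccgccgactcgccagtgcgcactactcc
The 250 bases before the start of Psme2, whose value separated the lines, are shown for comparison, with the ISRE core beginning 53 bases before the start.
Psme2 (chr15:33052752-33053001, minus strand): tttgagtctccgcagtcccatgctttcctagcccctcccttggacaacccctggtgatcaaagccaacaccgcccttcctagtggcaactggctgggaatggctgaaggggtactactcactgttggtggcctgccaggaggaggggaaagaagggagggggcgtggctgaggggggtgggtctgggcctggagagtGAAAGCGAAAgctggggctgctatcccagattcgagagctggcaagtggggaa

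Several of the genes lie next to each other. Among the coding genes of the RefSeq annotation, Tap2, Psmb8, Tap1 and Psmb9 follow one another on chromosome 20. Cxcl11, Cxcl10 and Cxcl9 do so on chromosome 14, and Ifitm2, Ifitm1 and Ifitm3 on chromosome 1. Neighbours did not share one pattern, as the values below show.

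All values are log2 expression values computed by the authors with RMA, and a difference of 1 is a doubling. Values of different genes are not set against each other, since probe sets differ in efficiency. A gene was called when the adjusted p-value of limma, corrected over all 14217 genes, was below 0.05. Deposited values ran from 2.94 to 14.69. A sign of RNA quality, the 3′ minus 5′ difference of actin probe sets, spanned 0.606 to 0.752 for tumours, 0.857 to 1.47 for epithelial and 1.05 to 2.65 for fibroblastic arrays, and its part in the differences was not tested. Lists of cell type markers checked what else the tumours held. All 16 macrophage and dendritic cell markers measured were called above both lines, as were 14 of 15 T, B and NK cell markers, 12 of 12 hepatocyte markers and 5 of 6 endothelial markers. The mean over the macrophage list was 9.96 to 10.29 in the tumours and 5.21 to 5.58 in the lines, and over the lymphocyte list 6.64 to 7.16 and 4.44 to 4.94. The part of these cells in the tumour differences was not tested, and in bulk tissue more cells of a type and more RNA per cell cannot be told apart.

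**Figure D1:**
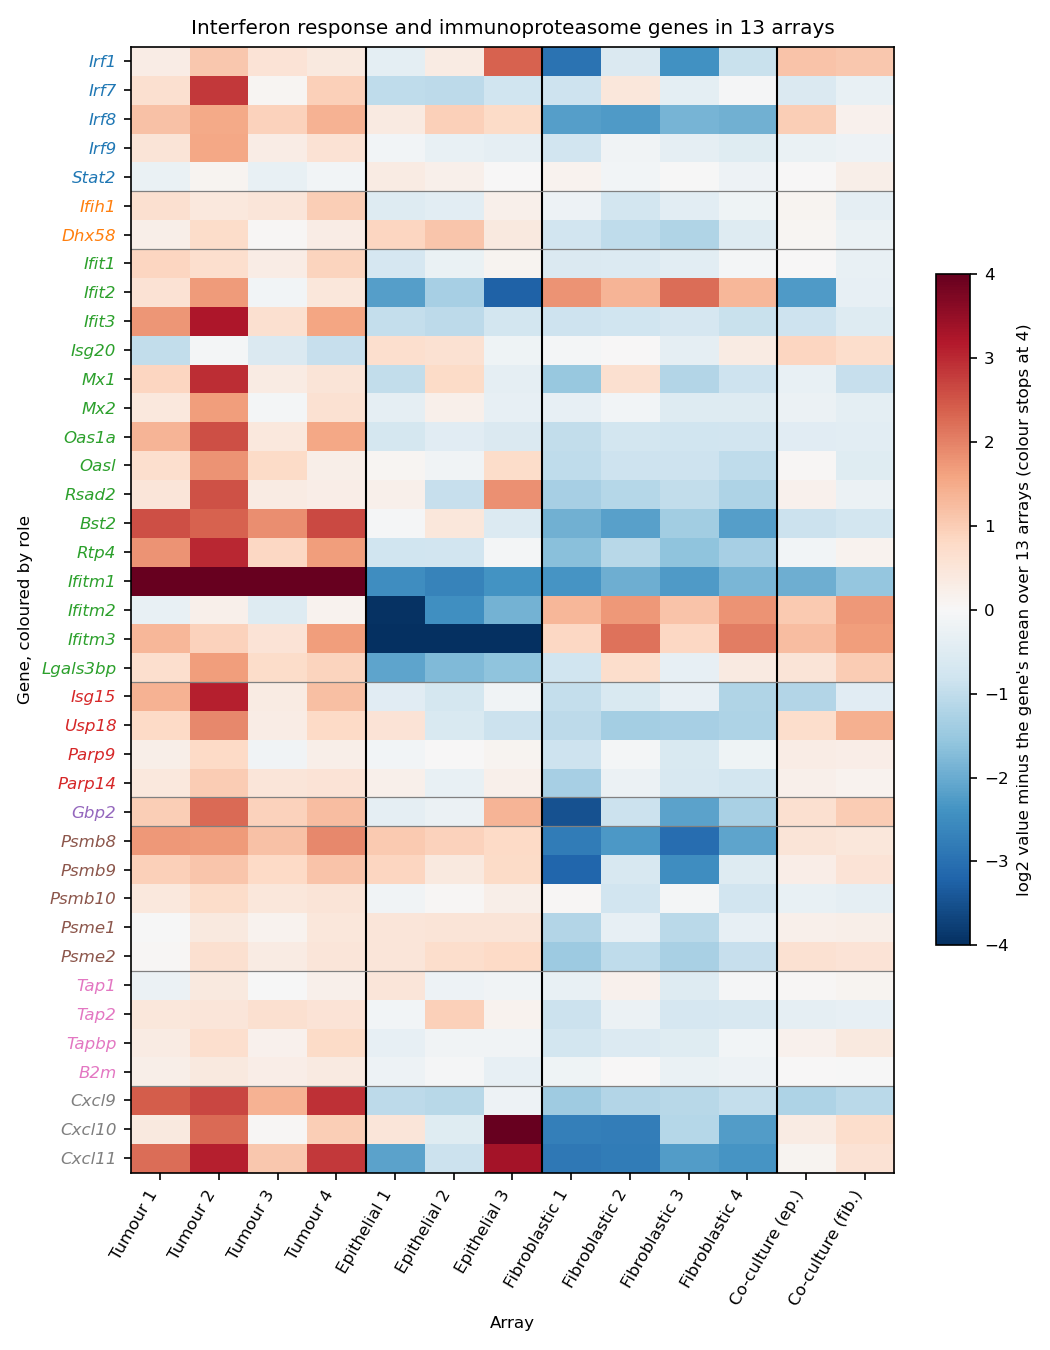
Each row is 1 of the 39 genes, grouped by role, and each column 1 of the 13 arrays. Colour gives the log2 value minus the mean of that gene over all arrays, so red is above and blue below its own mean. Most antiviral effectors and the CXCR3 ligands are red in the tumours, and Psmb8, Psmb9, Psme1 and Psme2 are blue in the fibroblastic line grown alone.

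The tumours were first compared with the epithelial line. In each tumour comparison the other cells of the tissue, growth in culture and the choice of a single clone differ together. Their parts cannot be told apart. Of the 39 genes 20 were higher in the tumours, 1 was lower and 18 were not called. Over all genes 52.1% were called, 18.9% higher and 33.2% lower, and the median difference was 0.83 for the 39 genes and -0.17 for all genes. With each array centred on its median, 23 were higher and 1 lower, against 26.4% and 24.1% of all genes. Every tumour lay above every epithelial array for 20 of the 39 genes, against 21.3% of all genes, and below for 1, against 37%.

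Against the fibroblastic line 33 of the 39 were higher and 1 was lower. All genes were called in 60.9%, 27.3% higher and 33.5% lower, and the medians were 1.35 and -0.07. After centring, the counts of the 39 genes were again 33 and 1, with 35.8% of all genes higher and 26.9% lower. The arrays did not overlap in 29 genes that were higher (26.2% of all genes) and 1 that was lower (32%). The 2 comparisons share the tumours. Above both lines were 17 of 39 (43.6%), against 12% of all genes. They were Irf7, Irf8, Irf9, Ifih1, Ifit1, Ifit3, Oas1a, Bst2, Rtp4, Ifitm1, Lgals3bp, Isg15, Usp18, Psmb8, Tapbp, B2m and Cxcl9. None was below both.

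**Figure D2:**
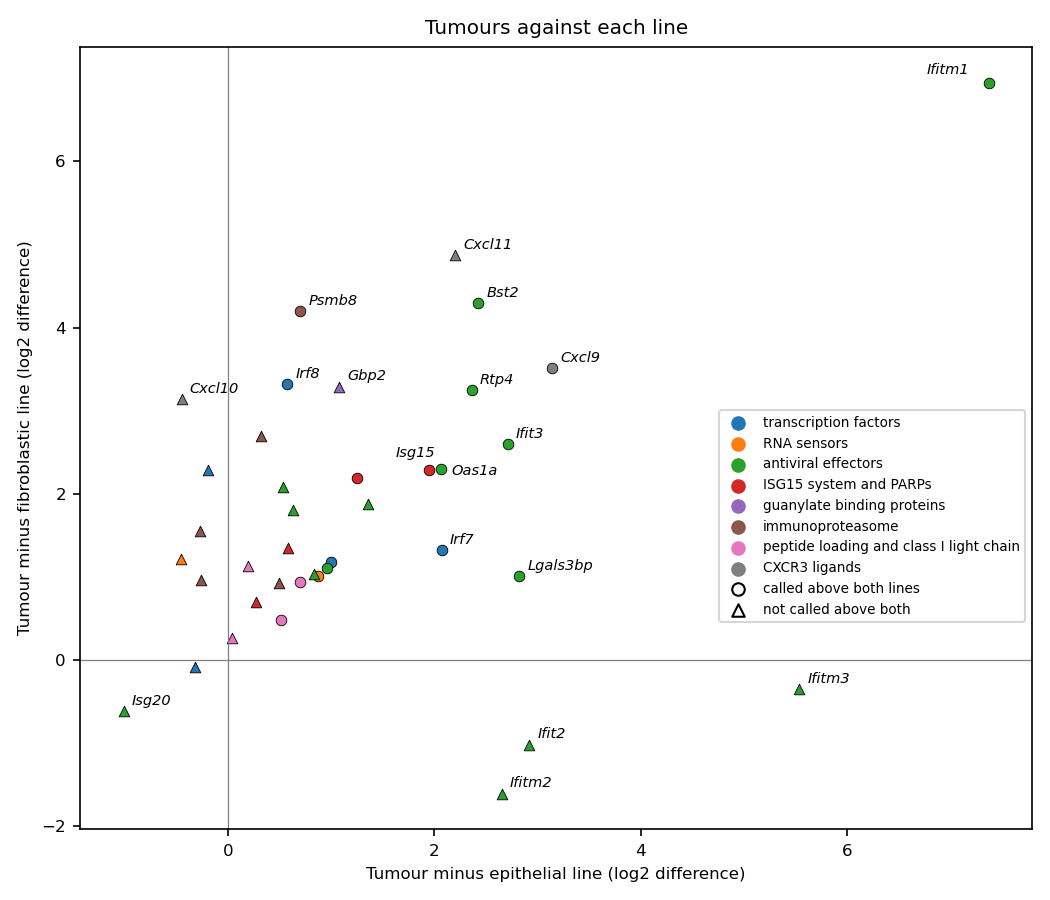
Each point is 1 of the 39 genes, with its tumour minus epithelial log2 difference on the horizontal axis and its tumour minus fibroblastic log2 difference on the vertical axis. Colour gives the role, circles are the 17 genes called above both lines and triangles the others. Ifitm1 stands at the far upper right with 7.37 and 6.95, Ifitm3 at 5.53 and -0.35, and Psmb8 near the vertical axis at 0.70 and 4.20.

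Of the 5 transcription factors 3 were above the epithelial line and 4 above the fibroblastic line, against 18.9% and 27.3% of all genes. Irf7, a master regulator of type I interferon production that is itself raised by interferon, read 8.27, 10.48, 7.71 and 8.61 in tumours 1 to 4. It read 6.64, 6.61 and 6.84 in the epithelial line and 6.83, 8.11, 7.26 and 7.60 in the fibroblastic line. Every tumour was above every epithelial array, but tumour 3 lay within the fibroblastic range. The difference was 2.07 (SE 0.54, adjusted p = 0.00918) from the epithelial line and 1.32 (SE 0.50, adjusted p = 0.0416) from the fibroblastic line. The call against the fibroblastic line ended without tumour 2 or 4, any epithelial array, or fibroblastic array 1, 3 or 4, and when only the compared groups were fitted, with a difference of 0.75 to 1.37 and adjusted p up to 0.105.

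Irf8, a factor of myeloid and lymphoid cells that interferon gamma also raises, read 8.59, 8.93, 8.33 and 8.81 in the tumours. In the epithelial line it read 7.77, 8.35 and 8.17, and in the fibroblastic line 5.21, 5.14, 5.56 and 5.50. The fibroblastic arrays were thus far below all others, and tumour 3 was the only tumour to overlap the epithelial line. The tumours exceeded the epithelial line by 0.57 (SE 0.19, adjusted p = 0.0286), a call lost without tumour 2 or 4 or epithelial array 1 (adjusted p up to 0.122). They exceeded the fibroblastic line by 3.32 (SE 0.18, adjusted p = 1.54e-07).

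Irf1, which interferon gamma induces early and which switches on class I presentation genes, read 9.20, 9.99, 9.47 and 9.29 in the tumours. It read 8.53, 9.24 and 11.27 in the epithelial line and 5.97, 8.35, 6.50 and 8.02 in the fibroblastic line. Epithelial array 3 was the highest of all 13 arrays, and no fibroblastic array reached the tumours. The tumours differed from the epithelial line by -0.19 (SE 0.69, adjusted p = 0.83) and were above the fibroblastic line by 2.28 (SE 0.64, adjusted p = 0.0101). Irf9, the DNA-binding partner of STAT2, was higher by 1.00 (SE 0.27, adjusted p = 0.00981) and 1.18 (SE 0.25, adjusted p = 0.00198). The other probe set of Irf9 gave smaller differences, 0.51 and 0.50. Stat2 differed by -0.32 (adjusted p = 0.086) and -0.09 (adjusted p = 0.561) and was not called, and its other probe set gave 0.19 against the epithelial line.

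The RNA sensor Ifih1, which encodes MDA5, was above both lines, while Dhx58, which encodes the regulatory helicase LGP2, was above the fibroblastic line. Ifih1 read 5.41, 5.21, 5.26 and 5.76 in the tumours, 4.28, 4.35 and 4.99 in the epithelial line and 4.59, 4.05, 4.35 and 4.61 in the fibroblastic line. Every tumour was above every line array, by 0.87 (SE 0.21, adjusted p = 0.00674) and 1.01 (SE 0.20, adjusted p = 0.00136). A further quantile normalization ended the first call (0.45, adjusted p = 0.0819). Dhx58 read 5.81, 6.28, 5.62 and 5.85 in the tumours, 6.42, 6.67 and 5.94 in the epithelial line and 4.81, 4.53, 4.36 and 5.03 in the fibroblastic line. It was the fibroblastic line that stood apart, by 1.21 below the tumours (SE 0.21, adjusted p = 0.000577), and the difference from the epithelial line was -0.46 (SE 0.23, adjusted p = 0.112).

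Of 15 antiviral effectors 10 were above the epithelial line and 1 below, and 11 were above the fibroblastic line and 1 below. Of all genes 18.9% were above and 33.2% below the epithelial line, and 27.3% were above and 33.5% below the fibroblastic line. Ifitm1, a membrane protein that blocks virus entry, showed the widest gap of the 39 genes. It read 11.34, 11.11, 10.84 and 11.55 in the tumours, 3.88, 3.69 and 3.96 in the epithelial line and 3.99, 4.41, 4.08 and 4.53 in the fibroblastic line. No line array came near the tumours, which were above the epithelial line by 7.37 (SE 0.19, adjusted p = 1.72e-09) and above the fibroblastic line by 6.95 (SE 0.18, adjusted p = 1.04e-09). The values carry no detection call, and whether Ifitm1, or other genes with line values near 4 such as Ifit3 and Cxcl9, was above background in the lines was not tested. Both co-culture arrays were low as well, at 4.40 and 4.82.

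Its neighbour Ifitm3, a related restriction factor, read 11.81, 11.42, 11.05 and 12.15 in the tumours and 11.32, 12.65, 11.32 and 12.52 in the fibroblastic line. In the epithelial line it read 6.38, 5.44 and 6.41. Tumours and fibroblastic arrays overlapped and the epithelial arrays lay apart. The tumours were 46.2-fold above the epithelial line (5.53, SE 0.41, adjusted p = 3.75e-06) and differed from the fibroblastic line by -0.35 (SE 0.38, 95% interval -1.18 to 0.49, adjusted p = 0.444). Ifitm2 read 9.99, 10.48, 9.78 and 10.43 in the tumours, 6.35, 7.83 and 8.40 in the epithelial line and 11.61, 12.01, 11.42 and 12.09 in the fibroblastic line. The tumours lay between the lines without overlap, 2.65 above the epithelial line (SE 0.41, adjusted p = 0.000474) and 1.61 below the fibroblastic line. The latter is a difference of -1.61 (SE 0.38, adjusted p = 0.00393). The 3 Ifitm genes are related in sequence, and cross-hybridization between their probe sets was not tested.

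Bst2, which encodes tetherin, a protein that holds budding virus at the cell surface, read 10.04, 9.81, 9.31 and 10.08 in the tumours. It read 7.40, 7.89 and 6.89 in the epithelial line and 5.51, 5.26, 6.05 and 5.25 in the fibroblastic line. The 3 groups did not overlap and the tumours were highest, by 2.42 (SE 0.28, adjusted p = 8.6e-05) and 4.29 (SE 0.26, adjusted p = 3.56e-07). Rtp4, an interferon-induced chaperone of receptors, read 8.62, 9.84, 7.68 and 8.50 in the tumours, 6.04, 6.08 and 6.77 in the epithelial line and 5.17, 5.74, 5.22 and 5.52 in the fibroblastic line. Every tumour was again above every line array, by 2.36 (SE 0.41, adjusted p = 0.000939) and 3.25 (SE 0.38, adjusted p = 3.92e-05). Lgals3bp, a secreted glycoprotein that binds galectins, read 9.98, 10.97, 10.05 and 10.20 in the tumours, 7.19, 7.55 and 7.70 in the epithelial line and 8.49, 10.01, 8.97 and 9.67 in the fibroblastic line. Tumour 1 overlapped fibroblastic array 2. The tumours were higher by 2.82 (SE 0.36, adjusted p = 0.000142) and 1.01 (SE 0.33, adjusted p = 0.021), the latter call ending without tumour 2 or fibroblastic array 1 or 3 (adjusted p up to 0.0569).

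The Ifit genes, whose proteins bind foreign RNA, fell into different patterns. Ifit3 read 6.64, 8.13, 5.53 and 6.46 in the tumours, from 3.85 to 4.15 in the epithelial line and from 3.99 to 4.20 in the fibroblastic line. Every tumour exceeded every line array, by 2.71 (SE 0.45, adjusted p = 0.000723) and 2.60 (SE 0.42, adjusted p = 0.000354). Ifit2 read 7.85, 8.96, 7.15 and 7.72 in the tumours, 5.06, 5.92 and 4.04 in the epithelial line and 9.05, 8.63, 9.50 and 8.59 in the fibroblastic line. The fibroblastic arrays overlapped tumour 2 and lay above the other tumours, with a tumour minus fibroblastic difference of -1.02 (SE 0.44, adjusted p = 0.0678), although the tumours were 2.92 above the epithelial line (SE 0.48, adjusted p = 0.000684). Both of its probe sets showed that order. Ifit1 was above both lines by 0.96 (adjusted p = 0.00355) and 1.10 (adjusted p = 0.000721), the first call ending under a further quantile normalization (adjusted p = 0.0653).

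Oas1a, whose product makes the second messenger that activates RNase L, was above both lines by 2.06 (SE 0.38, adjusted p = 0.00124) and 2.30 (SE 0.35, adjusted p = 0.000238). Oasl, Mx1, Mx2 and Rsad2, the last encoding viperin, were above the fibroblastic line by 1.80, 1.88, 1.03 and 2.08. Their differences from the epithelial line, 0.63, 1.36, 0.83 and 0.53, missed the threshold (adjusted p = 0.122, 0.125, 0.0585 and 0.519). The call of Mx1 ended without tumour 2, without fibroblastic array 1, 3 or 4, and under a further quantile normalization, which also ended that of Mx2 (adjusted p up to 0.0916 and 0.101). The other probe set of Mx2 gave -0.08 against the epithelial and 0.08 against the fibroblastic line. Isg20, an RNA exonuclease, was the single gene below the epithelial line, by a difference of -1.01 (SE 0.28, adjusted p = 0.0112), and the call ended without epithelial array 1 or under a further quantile normalization (adjusted p up to 0.0521).

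In the ISG15 system, where the ubiquitin-like ISG15 is attached to proteins and Usp18 removes it, both genes were above both lines. Isg15 read 8.15, 9.87, 7.08 and 7.97 in the tumours, 6.31, 6.04 and 6.60 in the epithelial line and 5.79, 6.15, 6.41 and 5.54 in the fibroblastic line. Every tumour was above every line array, and the differences were 1.95 (SE 0.52, adjusted p = 0.00971) and 2.29 (SE 0.48, adjusted p = 0.00194). Usp18, which also restrains the type I interferon receptor, read 7.30, 8.42, 6.78 and 7.29 in the tumours, 7.04, 5.89 and 5.64 in the epithelial line and 5.45, 5.14, 5.17 and 5.25 in the fibroblastic line. Epithelial array 1 overlapped the tumours, and the difference of 1.25 (SE 0.39, adjusted p = 0.0202) lost its call without epithelial array 2 or 3 (adjusted p up to 0.0826). That from the fibroblastic line was 2.19 (SE 0.36, adjusted p = 0.000418).

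Parp14, an ADP-ribosyltransferase that interferon raises, read 8.66, 9.23, 8.70 and 8.77 in the tumours, 8.42, 7.94 and 8.44 in the epithelial line and 6.91, 7.98, 7.59 and 7.50 in the fibroblastic line. Every tumour lay above every line array, but the difference from the epithelial line was 0.58 (SE 0.25, adjusted p = 0.0711) and was not called, while that from the fibroblastic line was 1.35 (SE 0.23, adjusted p = 0.000511). The other probe set of Parp14 gave 1.39 and 2.12. Parp9 differed by 0.27 (adjusted p = 0.358) and 0.70 (adjusted p = 0.0171). Gbp2, a GTPase that attacks the vacuoles of pathogens, read 10.06, 11.34, 10.00 and 10.31 in the tumours, 8.74, 8.85 and 10.44 in the epithelial line and 5.60, 8.21, 6.93 and 7.80 in the fibroblastic line. Epithelial array 3 lay among the tumours and the fibroblastic arrays below all others. The differences were 1.08 (SE 0.63, adjusted p = 0.168) and 3.29 (SE 0.58, adjusted p = 0.000664).

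Immunoproteasome genes were higher in the tumours than in the fibroblastic line and mostly missed the threshold against the epithelial line. Of the 5 genes 1 was above the epithelial line and 5 above the fibroblastic line, against 18.9% and 27.3% of all genes. The first count is near the share of all genes. Psmb8, the subunit beta5i, read 10.21, 10.19, 9.64 and 10.40 in the tumours, 9.53, 9.41 and 9.28 in the epithelial line and 5.67, 6.19, 5.42 and 6.38 in the fibroblastic line. The fibroblastic arrays stood far below, 18.3-fold under the tumours (4.20, SE 0.23, adjusted p = 1.69e-07). The smaller step to the epithelial line, 0.70 (SE 0.25, adjusted p = 0.0329), was lost without tumour 1, 2 or 4 or any epithelial array (0.61 to 0.77, adjusted p up to 0.0926).

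Psmb9, the subunit beta1i, read 9.87, 10.03, 9.71 and 10.07 in the tumours, 9.78, 9.33 and 9.69 in the epithelial line and 5.75, 8.30, 6.43 and 8.42 in the fibroblastic line. Tumour and epithelial arrays overlapped (0.32, SE 0.56, adjusted p = 0.654), and the fibroblastic arrays were lower and split into 2 levels (2.70, SE 0.52, adjusted p = 0.00117). Psmb10, the subunit beta2i, read 9.0, 9.31, 9.03 and 9.11 in the tumours, 8.43, 8.64 and 8.81 in the epithelial line and 8.63, 7.82, 8.50 and 7.83 in the fibroblastic line. Every tumour was above every line array, but by little: 0.49 (SE 0.21, adjusted p = 0.0764) and 0.92 (SE 0.20, adjusted p = 0.00233).

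The cap gene Psme1 read 11.58, 11.98, 11.74 and 12.06 in the tumours, 12.08, 12.11 and 12.11 in the epithelial line and 10.43, 11.29, 10.54 and 11.27 in the fibroblastic line. Every epithelial array was above every tumour by a narrow margin. Psme1 was 0.96 above the fibroblastic line in the tumours (SE 0.21, adjusted p = 0.00258) and differed by -0.26 from the epithelial line (SE 0.23, adjusted p = 0.359), where its other probe set gave 0.58. Its partner Psme2 read 10.95, 11.55, 11.23 and 11.40 in the tumours, 11.38, 11.59 and 11.70 in the epithelial line and 9.46, 9.88, 9.61 and 9.99 in the fibroblastic line. Again the fibroblastic line alone stood apart, 1.55 below the tumours (SE 0.16, adjusted p = 1.85e-05), with a difference of -0.27 from the epithelial line (SE 0.18, adjusted p = 0.218).

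Among 25 genes of the constitutive proteasome, a list of pathway genes outside the set, 1 was above the epithelial line in the tumours and 12 were below, with a median of -0.44. Against the fibroblastic line 7 were above and 5 below. Over all genes 18.9% were above and 33.2% below the epithelial line, and 27.3% were above and 33.5% below the fibroblastic line. Psmd1, a regulatory subunit, was lower in the tumours by -0.97 (SE 0.17, adjusted p = 0.00093) and -1.32 (SE 0.16, adjusted p = 4.05e-05).

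In peptide loading, Tapbp and B2m were above both lines and the transporter genes were not. Tapbp, which encodes tapasin, the bridge between class I molecules and the transporter, read 8.07, 8.43, 7.93 and 8.52 in the tumours, 7.42, 7.60 and 7.60 in the epithelial line and 7.01, 7.22, 7.28 and 7.66 in the fibroblastic line. Every tumour was above every line array, and the differences were 0.70 (SE 0.18, adjusted p = 0.00976) and 0.94 (SE 0.17, adjusted p = 0.000804). B2m, the class I light chain, read 13.85, 14.01, 13.87 and 13.99 in the tumours, 13.42, 13.56 and 13.28 in the epithelial line and 13.44, 13.63, 13.34 and 13.41 in the fibroblastic line. Here too every tumour was higher, by 0.51 (SE 0.12, adjusted p = 0.00469) and 0.48 (SE 0.11, adjusted p = 0.0035). The other probe set of B2m gave 1.28 and 1.41.

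Tap1 and Tap2 encode both chains of the transporter that carries peptides into the endoplasmic reticulum. Tap1 read 7.71, 8.33, 7.93 and 8.15 in the tumours, 8.43, 7.74 and 7.80 in the epithelial line and 7.65, 8.12, 7.41 and 7.89 in the fibroblastic line. All 3 groups overlapped (0.04, SE 0.23, adjusted p = 0.888, and 0.26, SE 0.21, adjusted p = 0.304). Tap2 read 6.95, 7.0, 7.14 and 7.04 in the tumours, 6.40, 7.46 and 6.66 in the epithelial line and 5.63, 6.28, 5.84 and 5.86 in the fibroblastic line. The tumours fell within the epithelial range (0.19, SE 0.23, adjusted p = 0.521) and above all fibroblastic arrays (1.13, SE 0.22, adjusted p = 0.00117). So in the run of neighbours Tap2, Psmb8, Tap1 and Psmb9, tumour minus fibroblastic differences were 1.13, 4.20, 0.26 and 2.70.

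The CXCR3 ligands, chemokines that attract activated T and NK cells, also came apart although they are neighbours. Cxcl9 read 7.86, 8.12, 6.82 and 8.35 in the tumours, 4.38, 4.32 and 5.23 in the epithelial line and 4.01, 4.26, 4.33 and 4.50 in the fibroblastic line. All tumours lay far above all line arrays, by 3.14 (SE 0.34, adjusted p = 5.63e-05) and 3.51 (SE 0.32, adjusted p = 6.03e-06), and another probe set gave 3.16 and 3.63. Cxcl10 read 7.95, 9.84, 7.60 and 8.55 in the tumours, 8.06, 7.07 and 11.70 in the epithelial line and 4.82, 4.81, 6.42 and 5.34 in the fibroblastic line. The epithelial arrays surrounded the tumours (-0.45, SE 0.96, adjusted p = 0.713), which were above every fibroblastic array (3.14, SE 0.89, adjusted p = 0.0107). Cxcl11 read 9.14, 9.99, 7.97 and 9.71 in the tumours, 4.76, 6.02 and 10.22 in the epithelial line and 4.04, 4.11, 4.66 and 4.52 in the fibroblastic line. A single epithelial array exceeded the tumours, and the difference was 2.20 (SE 1.03, adjusted p = 0.0942). The difference from the fibroblastic line was 4.87 (SE 0.95, adjusted p = 0.00129). Without epithelial array 3 Cxcl11 was called above the epithelial line, by 3.81 (SE 0.53, adjusted p = 0.000531), while Cxcl10 still was not (0.92, adjusted p = 0.258).

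Pathway genes outside the set were counted in the same fits, where 18.9% of all genes were higher and 33.2% lower against the epithelial line. Against the fibroblastic line these shares were 27.3% and 33.5%. Of 99 measured, tumours exceeded the epithelial line in 29 and fell short of it in 22, and exceeded the fibroblastic line in 45 and fell short in 14. Of 27 other interferon-stimulated genes, 10 were higher and 2 lower against the epithelial line, and against the fibroblastic line 20 were higher and 3 lower. Other class I presentation genes were higher in 6 of 9 and 7 of 9. Ligands were higher in 2 of 6 and lower in 1 against the epithelial line and higher in 2 against the fibroblastic line, and receptors and their kinases were higher in 5 of 12 and lower in 2, then higher in 3 and lower in 2. Sensors and adaptors (11 genes) were higher in 3 and lower in 2, then higher in 3 and lower in 3. Inhibitors (9 genes) were higher in 2 and lower in 3, then higher in 3 and lower in 1. Several of these counts, such as those of the sensors and adaptors against the fibroblastic line, lie near the shares of all genes. Of the interferon genes, Ifnb1 read 4.64 to 4.75 in the tumours and was not called (0.27 against each line, adjusted p = 0.164 and 0.126). Ifng read 3.65 to 3.79 (0.28, adjusted p = 0.0448, and 0.18, adjusted p = 0.131). Ifnk went the other way and was the ligand called lower, by -0.40 from the epithelial line. Its tumours read 4.12, 4.19, 4.08 and 4.20, and its epithelial arrays 4.43, 4.58 and 4.63. Fibroblastic arrays, at 4.23, 4.17, 4.10 and 4.18, overlapped these tumours. All Ifng readings lay near the lowest deposited value, 2.94, and whether any of these interferon genes was above background was not tested.

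The pathway genes that led the comparison with the epithelial line were Cd8a (5.20, SE 0.27, adjusted p = 2.35e-07), the T cell co-receptor that reads class I, the cytokine Il18 (4.04, SE 0.34, adjusted p = 8.64e-06) and Cd8b (2.57, SE 0.18, adjusted p = 2.44e-06). Lowest were Cxcr3 (-1.49, SE 0.26, adjusted p = 0.00102), the receptor of the 3 chemokines, the lambda interferon receptor gene Ifnlr1 (-1.45, SE 0.28, adjusted p = 0.00177) and Psmd1. Against the fibroblastic line Cd8a (5.64), the guanylate binding protein gene Gbp4 (4.81) and Il18 (4.28) led, and Tor3a (-2.0), the adaptor gene Ticam1 (-1.33) and Psmd1 were lowest.

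Grown alone, the lines differed in 18 of the 39 genes, with the epithelial line above in 14 and below in 4, against 20.9% and 16.6% of all genes (37.4% in all). The median was 0.43, and 0.11 over all genes. The arrays did not overlap in 17 genes that were higher and 5 that were lower in the epithelial line, against 26% and 19.2% of all genes. With arrays centred on their medians, again 14 of the 39 were higher and 4 lower, against 20.4% and 16.8% of all genes. The immunoproteasome was higher in the epithelial line in 4 of 5 genes. Psmb8 differed 11.2-fold (3.49, SE 0.24, adjusted p = 1.75e-05), Psmb9 by 2.38 (SE 0.65, adjusted p = 0.0212), Psme2 by 1.82 (SE 0.17, adjusted p = 0.000108) and Psme1 by 1.22 (SE 0.25, adjusted p = 0.00591), while Psmb10 differed by 0.43 (adjusted p = 0.207). The call of Psmb9 ended without epithelial array 1 or 3 (adjusted p up to 0.0684). In the constitutive proteasome list 10 of 25 were higher in the epithelial line and none was lower.

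The epithelial line was also higher in Irf8 (2.75, SE 0.19, adjusted p = 1.67e-05), Bst2 (1.88, adjusted p = 0.00143), Dhx58 (1.67, adjusted p = 0.000893) and Oasl (1.16, adjusted p = 0.00381). It was lower in Ifitm3 (-5.88, SE 0.42, adjusted p = 1.95e-05), Ifitm2 (-4.26, SE 0.45, adjusted p = 0.000186), Ifit2 (-3.94, SE 0.43, adjusted p = 0.00023) and Lgals3bp (-1.80, SE 0.36, adjusted p = 0.00522). Of the 15 antiviral effectors, 3 were higher in the epithelial and 4 in the fibroblastic line, counts near the shares of all genes (20.9% and 16.6%). Irf1 (2.47, adjusted p = 0.0382), Gbp2 (2.21, adjusted p = 0.0321), Cxcl10 (3.60, SE 1.01, adjusted p = 0.0243), Tap2 (0.94, adjusted p = 0.0286), Rtp4 (0.88, adjusted p = 0.0188) and Usp18 (0.94, adjusted p = 0.0482) were higher in the epithelial line as well, but each of these calls ended when an array was left out (adjusted p up to 0.118). That held for Irf1 when epithelial array 2 or 3, or fibroblastic array 1 or 3, was left out, for Gbp2 when epithelial array 2 or 3, or fibroblastic array 3, was, and for Cxcl10 without fibroblastic array 1, 2 or 4. It held for Tap2 when epithelial array 2 or 3, or fibroblastic array 1, 3 or 4, was left out, for Rtp4 without epithelial array 3, and for Usp18 without epithelial array 1 or 2 or any fibroblastic array. A single fit of all 13 arrays also ended the calls of Rtp4 and Usp18 (adjusted p up to 0.107). Without epithelial array 3, 9 genes were higher and 4 lower, against 17.4% and 14.2% of all genes, and Irf1 (1.68, adjusted p = 0.118), Gbp2 (1.66, adjusted p = 0.112) and Rtp4 (0.65, adjusted p = 0.0548) were among those lost.

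Within each group the genes did not vary alike, and single arrays carried much of the spread. The following values are descriptions with no test. Tumour 2 gave the highest value of the tumours for 28 of the 39 genes, against 32.3% of all genes, and tumour 3 was the lowest in 26, against 20.0% of all genes. In 15 of 39 (38.5%) tumour 2 was over 2-fold above the mean of the other tumours, against 1.1% of all genes. The genes were Mx1 (2.40), Irf7 (2.28), Rsad2 (2.21), Isg15 (2.14), Ifit3 (1.92), Cxcl10 (1.81), Rtp4 (1.57), Oas1a (1.46), Ifit2 (1.39), Mx2 (1.34), Usp18 (1.30), Oasl (1.23), Gbp2 (1.22), Irf9 (1.07) and Cxcl11 (1.05). Rsad2 shows the pattern plainly, at 8.75 in tumour 2 and 6.68, 6.51 and 6.44 in tumours 1, 3 and 4. For the immunoproteasome the same difference was 0.10 to 0.35, and for peptide loading and B2m it was -0.04 to 0.40.

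The median SD over the tumours was 0.39 for the 39 genes and 0.18 for all genes. Tumour 2 also differed from the other tumours in hepatocyte markers, with a list mean of 5.49 against 12.68, 11.10 and 12.85 in tumours 1, 3 and 4, and the part of that difference was not tested. Its macrophage and lymphocyte lists differed from the mean of the other tumours by medians of 0.06 and -0.09. Without tumour 2, 18 of the 39 genes were above the epithelial line and 2 below (all genes 17.9% and 31.5%). Above the fibroblastic line were 30, and 3 were below (25.3% and 32.0%). Above both lines were 13, and the share of all genes above both without tumour 2 was not counted. The medians were then 0.68 and 1.22.

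**Figure D3:**
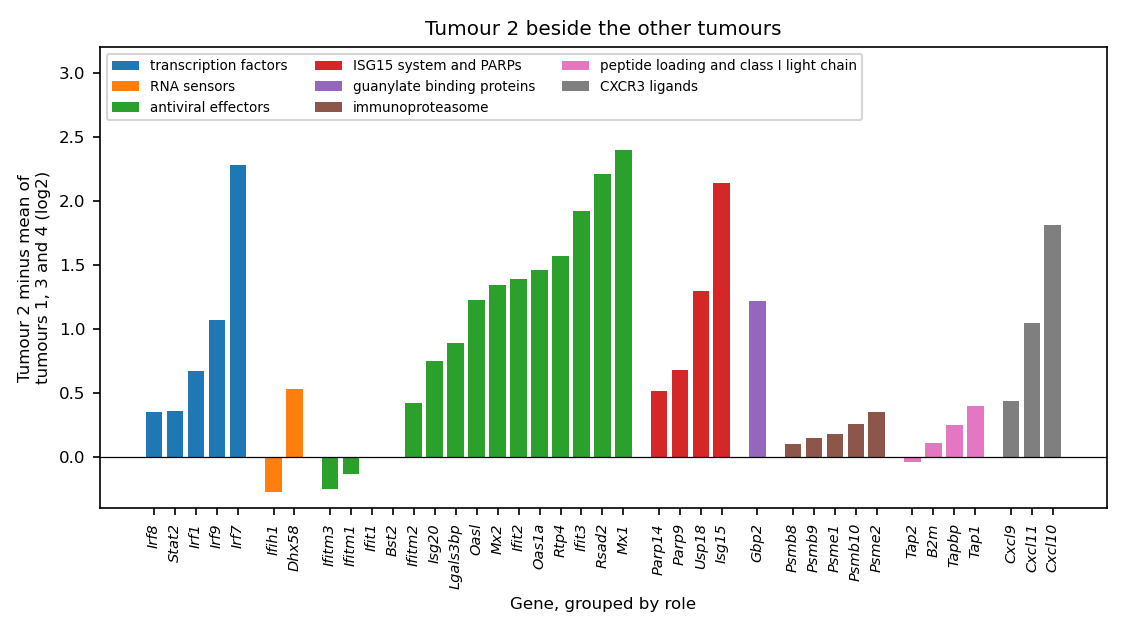
Bars give, for each of the 39 genes, the log2 value of tumour 2 minus the mean of tumours 1, 3 and 4, coloured and grouped by role. Bars over 1 mark a difference of more than 2-fold, reached by 15 genes, while the immunoproteasome bars lie between 0.10 and 0.35.

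Epithelial array 3 was the highest of its group in 22 of 39 genes (56.4%), against 32.4% of all genes. It was over 2-fold above the mean of the other epithelial arrays in 6 (15.4%), against 1.48%. These were Cxcl11 (4.83), Cxcl10 (4.14), Irf1 (2.38), Rsad2 (2.18), Gbp2 (1.65) and Ifitm2 (1.31). Of the immunoproteasome genes, Psmb10 and Psme2 were highest and Psmb8 was lowest in that array, and its differences from the mean of the other epithelial arrays ran from -0.19 to 0.28.

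The fibroblastic arrays split into pairs over all genes and not only in this set. The median difference over all genes was 0.195 between arrays 1 and 3 and 0.189 between arrays 2 and 4. Across the pairs it was 0.274 to 0.342. The fits treat the 4 arrays as replicates of 1 group. Arrays 2 and 4 were both above arrays 1 and 3 in 18 of the 39 genes (46.2%), against 27.3% of all genes, and below in 4 (10.3%), against 32.5%. The differences between the pairs' means were widest for Psmb9 (2.26), Irf1 (1.95), Gbp2 (1.74), Ifitm3 (1.26) and Mx1 (1.25). Psmb10 went the other way. The 3′ minus 5′ actin difference was 2.65 and 2.01 in arrays 2 and 4 and 1.72 and 1.05 in arrays 1 and 3, and its part was not tested.

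**Figure D4:**
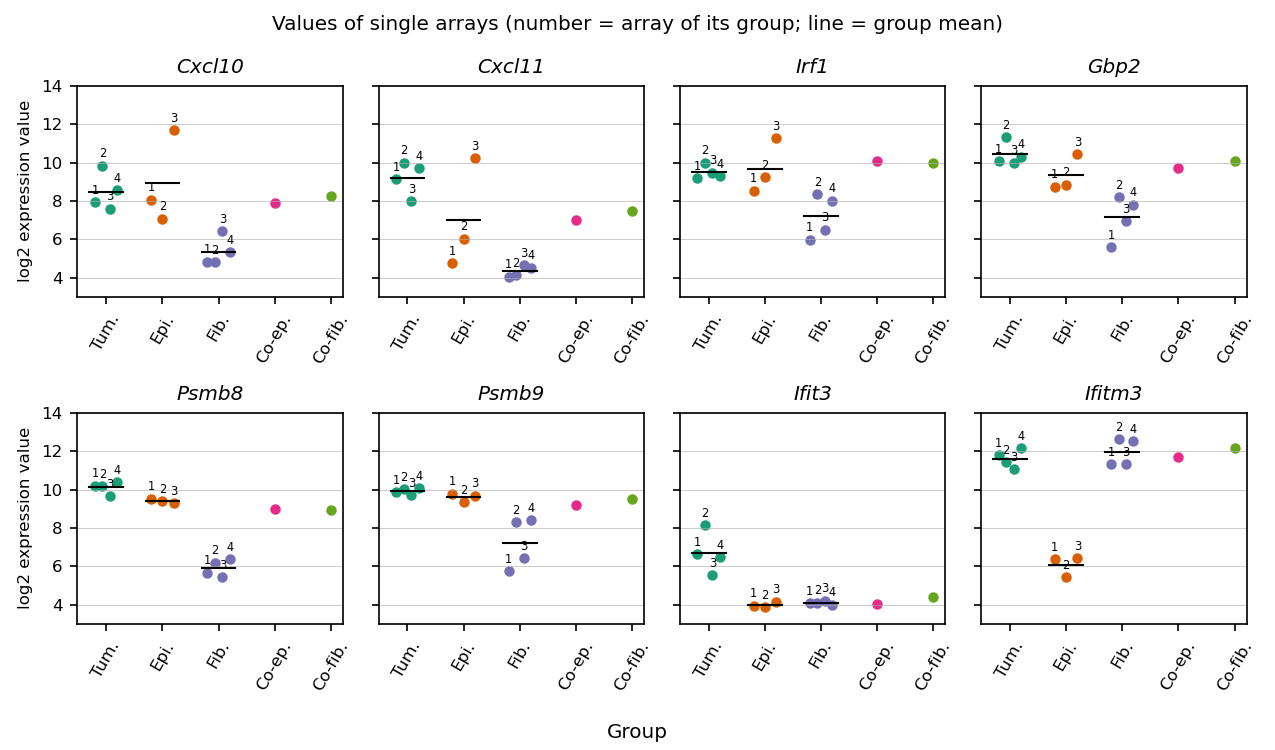
Each panel shows 1 gene, with its log2 value on the vertical axis for every tumour (Tum.), epithelial (Epi.), fibroblastic (Fib.) and co-culture (Co-ep., Co-fib.) array. Numbers name the array of its group and horizontal lines are group means. Epithelial array 3 stands above the other epithelial arrays for Cxcl10, Cxcl11, Irf1 and Gbp2, fibroblastic arrays 2 and 4 above 1 and 3 for Psmb9, and tumour 2 above the other tumours for Ifit3.

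The co-culture arrays need a statement on their content before any result. Both carried markers of both lines. The mean over 7 epithelial markers was 12.48 and 12.42 in the arrays labelled epithelial and fibroblastic, against 12.86 to 13.18 in the epithelial line alone and 4.60 to 5.23 in the fibroblastic line alone. The mean over 10 fibroblastic markers was 9.58 and 9.91, against 5.09 to 5.25 and 11.30 to 11.48. The 2 arrays differed from each other by a median of 0.176 over all genes. That is less than among the epithelial arrays (0.257 to 0.283) and less than among the fibroblastic arrays (0.189 to 0.342). A response of a line to co-culture and a mixture of both lines in the sample cannot be told apart in such arrays. With 1 array each, the fit assumed that they vary like the replicated groups.

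Against the epithelial line alone, the array labelled epithelial was higher in 3 of the 39 genes and lower in none, with 4.87% of all genes higher, 2.37% lower and 7.24% called. They were Ifitm3 (5.65, SE 0.63, adjusted p = 0.00132), Ifitm2 (3.81, SE 0.68, adjusted p = 0.0142) and Lgals3bp (2.35, SE 0.54, adjusted p = 0.0402). It read 11.72 for Ifitm3, 11.33 for Ifitm2 and 9.83 for Lgals3bp. All 3 genes were higher in the fibroblastic than in the epithelial line grown alone. The call of Lgals3bp ended without any epithelial array or fibroblastic array 3 or 4 (adjusted p up to 0.0937), and that of Ifitm2 when only the compared groups were fitted (adjusted p = 0.0535).

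Against the fibroblastic line alone, the array labelled fibroblastic was higher in 5 genes and lower in none, with 4.78% of all genes higher, 3.63% lower and 8.41% called. Psmb8 read 8.92 and was higher by 3.00 (SE 0.36, adjusted p = 0.00198). Irf8 read 7.59 (2.24, SE 0.28, adjusted p = 0.00243), Psme2 11.46 (1.73, SE 0.26, adjusted p = 0.00533), Usp18 7.91 (2.65, SE 0.46, adjusted p = 0.0112) and Rtp4 6.98 (1.57, SE 0.34, adjusted p = 0.029). All 5 were higher in the epithelial than in the fibroblastic line grown alone, and the mean over the epithelial markers in this array was 12.42. The call of Rtp4 ended without fibroblastic array 1, 3 or 4 and in a single fit of all 13 arrays (adjusted p up to 0.133). Without epithelial array 3, 8 genes were called, 7 higher and 1 lower, against 4.38% and 3.09% of all genes.

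The difference between the responses was called for 4 of the 39 genes, 1 upward and 3 downward, against 8.43% of all genes (4.66% and 3.76%). The response labelled epithelial exceeded that labelled fibroblastic for Ifitm3 by 5.44 (SE 0.88, adjusted p = 0.0072). It was below it for Psmb8 by -3.43 (SE 0.51, adjusted p = 0.005), Irf8 by -1.96 (SE 0.40, adjusted p = 0.0213) and Psme2 by -1.78 (SE 0.37, adjusted p = 0.0218). All 4 also differed between the lines grown alone, Ifitm3 with the fibroblastic line higher and the others with the epithelial line higher. This contrast equals the difference between the 2 co-culture arrays minus the difference between the lines grown alone. The 2 co-culture arrays differed by a median of only 0.176 over all genes. The contrast therefore largely repeats the line difference with its sign reversed, and is not a separate result about a response.

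Since a mixture lies between the lines, each co-culture array was also compared with both lines, a comparison chosen after the marker values had been seen. No member of the set was called above both lines in either array, by limma, against 0.935% and 0.964% of all genes. At an unadjusted p under 0.05 the counts were 0 and 2 (Usp18 and Tapbp). The share of all genes at that unadjusted limit was not counted, so the 2 genes cannot be set against it. Without epithelial array 1, Usp18 was called above both lines in both arrays, by 1.43 and 1.94 in the array labelled epithelial and by 2.14 and 2.65 in the one labelled fibroblastic. Within the range of the 7 arrays of the lines alone lay 34 and 30 of the 39 genes. Above all 7 lay 5 genes (Irf8, Isg20, Usp18, Parp9 and Tapbp) in the array labelled epithelial, against 10.2% of all genes. In the array labelled fibroblastic 9 lay above, against 9.15%, namely Ifit3, Isg20, Oas1a, Rtp4, Ifitm1, Lgals3bp, Usp18, Parp9 and Tapbp. None lay below, against 15.2% and 12.4% of all genes. Of the genes that were above both lines in the tumours, Cxcl9 (4.20 and 4.36), Ifit3 (4.04 and 4.37) and Isg15 (5.58 and 6.29) read below every tumour in the arrays labelled epithelial and fibroblastic. So did Irf7, Irf9, Ifih1, Ifit1, Oas1a, Bst2, Rtp4, Ifitm1, Psmb8 and B2m, and thus most of these genes. Usp18 (7.19 and 7.91) lay within the tumour range in both arrays. Irf8 lay within it in the array labelled epithelial (8.39), and Lgals3bp (10.31) and Tapbp (8.16) in the array labelled fibroblastic. This comparison with the tumour range was chosen after the values were seen.

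**Figure D5:**
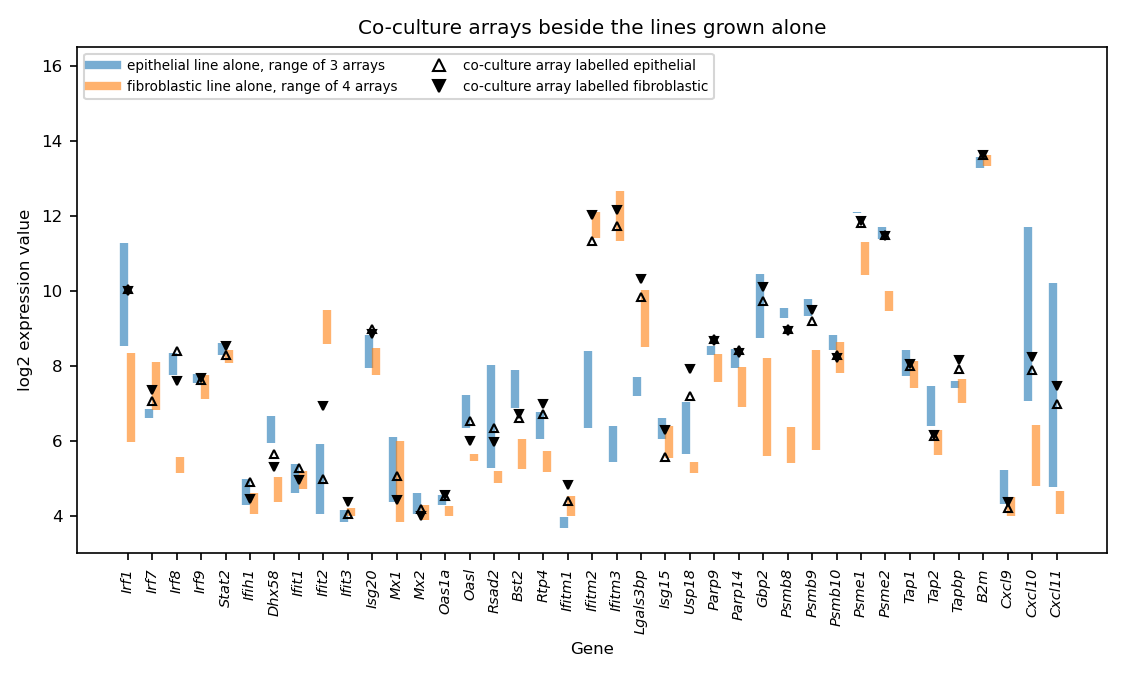
For each of the 39 genes, in order of role, vertical bars span the log2 values of the epithelial line alone (3 arrays) and of the fibroblastic line alone (4 arrays), and triangles give the 2 co-culture arrays. For Ifitm3 both triangles lie in or near the fibroblastic bar, at 11.72 and 12.16, and for Psmb8 both lie near the epithelial bar, at 8.98 and 8.92.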

How the data were processed

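Per the labels' protocols, Trizol-extracted RNA was converted to biotinylated cRNA for Affymetrix rat arrays, read in 1 colour. The authors computed the deposited log2 expression values by RMA, per the submitters' processing notes. Which RMA version was used, and on which arrays jointly, is not stated, and the log2 scale was read from the range of the values. Nothing was normalized again.

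The arrays hold 31099 probe sets, of which 57 are controls and were dropped. Exactly 1 gene was named by 20826, several by 436 and none by 9780. Entrez identifiers updated 20758 symbols, accessions 2, and 66 stayed as they were. For each of 14217 genes the probe set of highest mean in the 13 arrays was kept. This mattered for 4525 genes, 10 of them members. Differences were tested, two-sided, with limma 3.58.1 in R 4.3.3 (statmod 1.5.0 for the block), on group means with moderated statistics and no trend. The method of Benjamini and Hochberg was applied over all genes at 0.05. Tumour comparisons used 1 fit of the tumours and both lines (11 arrays), and line and co-culture comparisons 1 fit of both lines alone and in co-culture (9 arrays). Intervals are at 95%, and the number of arrays limits the precision. Promoters came from RefSeq (GRCr8). Python 3.11.15 with numpy 2.4.6, pandas 2.3.3 and, for figures, matplotlib 3.10.9 was used.

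The members and gene lists were chosen with earlier results of these data known. Values of every array are given for the immunoproteasome, peptide loading and CXCR3 ligand genes, for the 3 genes of each other role with the widest mean difference over both tumour comparisons, and for genes called in co-culture. Ifit2, Ifit3 and the Rsad2 values by tumour were added after values were seen. Of pathway genes, the 3 called with the widest difference in each direction are named. The interferon genes Ifnb1, Ifng and Ifnk are given outside that rule.

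The method was tested on simulated data of 14217 genes, in which 100 genes differed by log2 1 and another 100 by log2 2. For tumours against the epithelial line it recovered 60 and 83 (7 false calls), and against the fibroblastic line 72 and 92 (15 false). For the lines it recovered 42 and 81 (11 false), for the epithelial co-culture 4 and 52 (3 false), for the fibroblastic co-culture 7 and 59 (6 false), and for the difference in response 0 and 19 (4 false). Most co-culture differences of 1 were therefore missed in the simulated data. Far fewer genes differed there than were called in the co-culture comparisons (7.24% and 8.41% of all genes). The adjusted threshold depends on how many genes differ, so recovery in the real arrays may differ. The alternatives comprised 1 fit of all arrays, the compared groups only, a further quantile normalization, centring, the lowest 25% of genes left out, the mean of a gene's probe sets, trend and robust moderation, the replicate number as a block and each array left out.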

Additional observations from a re-analysis of the deposited data

Results flagged for a closer look

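Among 78 groups of 4 arrays, 39 genes in the tumours and in the fibroblastic line, 2 had an array far from the others by Dixon's criterion, where chance gives about 1 in 20 groups. Rsad2 read 8.75 for tumour 2, while the other tumours read 6.44 to 6.68. Oas1a read 4.0 for fibroblastic array 1, while the other fibroblastic arrays read 4.21 to 4.26.

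A difference between the co-culture responses passed limma's test for 4 of the 39 genes, against 8.43% of all genes. The response labelled epithelial minus that labelled fibroblastic was 5.44 for Ifitm3, -3.43 for Psmb8, -1.96 for Irf8 and -1.78 for Psme2. Both co-culture arrays carried markers of both lines, so a mixture and a response cannot be told apart. The 2 arrays were also nearly alike, so this contrast largely repeats the difference between the lines grown alone with its sign reversed.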

How the results depend on the processing

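Leaving out each array in turn gave 18 to 23 of the 39 genes called between tumours and the epithelial line (21 with all arrays), 31 to 35 against the fibroblastic line (34), 13 to 18 between the lines (18) and 13 to 18 above both lines (17). For the array labelled epithelial 2 to 3 were called (3), for the array labelled fibroblastic 4 to 8 (5), and for the difference in response 4 to 5 (4). The count for the fibroblastic co-culture rose to 8 without epithelial array 3. The count above both lines in each co-culture array was 0 to 1 (0), and it was 1 without epithelial array 1. The median SD over the tumours ranged from 0.28 to 0.43 (0.39).

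Under the other settings the same counts were 16 to 24, 26 to 35, 17 to 20, 12 to 20, 2 to 3, 4 to 7 and 4 to 5. The lowest of several came from leaving out the 25% of genes with the lowest mean, which left 31 of the 39 tested and 16, 26 and 12 called. Centring moved the median of all genes from -0.17 to 0.03 against the epithelial line and from -0.07 to 0.12 against the fibroblastic line. Replicate numbers did not pair the arrays, with correlations of same-numbered arrays from -0.148 to 0.143. With the replicate number as a block the counts were 21, 34 and 20, and 17 above both lines, and the other counts did not move. No gene that was called changed sign under these alternatives. These ranges count the 39 genes only, and the share of all genes is given above for only some of the settings. In the simulated co-culture data, where far fewer genes differed, differences of 1 were mostly out of reach with 1 array.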
